A study of Mus musculus with 8 samples.

Results

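Pancreatic acinar digestive enzyme genes were followed one array at a time in RNA from mouse small intestine. The 10 genes were Amy2a5, Cel, Cela1, Cela2a, Cela3b, Clps, Cpa1, Cpb1, Ctrb1 and Pnliprp1, of 21866 genes with a probe well above background on both arrays of 1 group or more. They were taken by the gene name that the array files give each probe, which found 12 probes, 2 each for Amy2a5 and Clps and 1 for each other gene. The genes had been picked because their signals were high on single arrays. Their levels on each array are therefore given as descriptions with no test, and the limma values given further down for group comparisons are not read as evidence about them. The tissue came from female BALB/cA Jcl mice aged 8 weeks, and the design text gives the segment as jejunum. All mice had an intraperitoneal injection, the design text gives a pretreatment of 12 h, and tissue was frozen 4 h after irradiation. In 0 Gy saline the mice had saline and no dose, and in 8 Gy saline they had saline and 8 Gy of carbon ions. In 8 Gy FGF1 and 8 Gy FGF1/CPP-C the same dose followed FGF1, a fibroblast growth factor, or a chimeric protein built on it. Each group had 2 arrays, replicate 1 on one slide and replicate 2 on the other, and the labels name no animal, culture or pool behind an array. Any p-value therefore measures the spread between arrays, which may be technical.

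Acinar cells make up most of the exocrine pancreas. They store inactive proteases together with amylase and lipases in zymogen granules, and release them through the pancreatic duct into the duodenum, where the proteases are activated. Transcription of these genes in the acinar cell depends on PTF1, a complex that holds the factor PTF1A and the subunit RBPJL and binds an E-box beside a TTTCCC box. Absorptive cells of the intestinal lining are not known as a source of most of these enzymes.

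Each probe was 60 bases long. Every probe of the 10 genes except the brighter Amy2a5 probe had at least 1 reading frame free of stop codons. Probe sequences are given for 6 of the genes. For Clps and Amy2a5 the sequence is that of the dimmer probe, while the brighter one stood for the gene in the group comparisons. The Cela3b probe shares a run of 21 bases, in capitals, with a probe for Cela3a, a close relative, and the second sequence of the pair is that of Cela3a. Over 58 overlapping bases these 2 probes differ at 6 positions, so part of either signal could come from the other transcript.
Cela3b: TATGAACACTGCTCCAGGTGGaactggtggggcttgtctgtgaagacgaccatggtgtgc
Cela3a: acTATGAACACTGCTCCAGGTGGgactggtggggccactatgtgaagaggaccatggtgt
Cela1: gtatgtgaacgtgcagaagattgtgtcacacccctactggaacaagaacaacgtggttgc
Cela2a: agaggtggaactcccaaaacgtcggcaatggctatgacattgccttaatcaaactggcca
Pnliprp1: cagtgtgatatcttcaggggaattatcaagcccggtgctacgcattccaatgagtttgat
Clps, dimmer probe: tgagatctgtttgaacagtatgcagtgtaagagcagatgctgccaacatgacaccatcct
Amy2a5, dimmer probe: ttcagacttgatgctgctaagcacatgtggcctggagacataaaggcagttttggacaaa
In the mm9 coordinates of the array files, the Cela3b probe lies at chr4:136979192-136979251, the Cela1 probe at chr15:100515014-100515073, the dimmer Clps probe at chr17:28695761-28695820 and the dimmer Amy2a5 probe at chr3:113058788-113058847, all on the minus strand. Which exon each covers was not analysed here, and the files give no position for the Cela2a and Pnliprp1 probes. The brighter Amy2a5 probe shares a run of 23 bases with a probe for Amy1, the salivary amylase gene. Near-identical copies of pancreatic amylase also exist in the mouse, so the Amy2a5 signal cannot be assigned to 1 copy. No other probe of the 10 genes shared 20 bases in a row with a probe of another gene name.

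The 250 bases before the start sites of the 10 genes were read from RefSeq on GRCm38.p6, where 9 of the 10 genes were matched. Both strands were searched for CACCTG, an E-box, and for TTTCCC, and the matches are in capitals. CACCTG was found before 5 of the 9 genes (Cel, Cela1, Cela2a, Cela3b and Cpb1), against 17.2% of 32851 windows of the same length. TTTCCC was found before 5 of the 9 (Cel, Cela1, Cela2a, Cpa1 and Ctrb1), against 21.9% of the windows. Both were present in 3 of the 9, shown here, against 3.6% of the windows.
Cela1: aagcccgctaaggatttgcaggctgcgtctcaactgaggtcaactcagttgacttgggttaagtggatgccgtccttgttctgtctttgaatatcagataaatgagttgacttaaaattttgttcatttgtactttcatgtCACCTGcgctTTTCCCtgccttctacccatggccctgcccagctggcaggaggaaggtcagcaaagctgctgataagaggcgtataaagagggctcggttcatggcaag
Cela2a: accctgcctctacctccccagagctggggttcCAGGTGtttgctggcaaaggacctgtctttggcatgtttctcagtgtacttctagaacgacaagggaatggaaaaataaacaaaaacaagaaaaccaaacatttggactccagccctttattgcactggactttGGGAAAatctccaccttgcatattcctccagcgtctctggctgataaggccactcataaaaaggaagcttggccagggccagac
Cel: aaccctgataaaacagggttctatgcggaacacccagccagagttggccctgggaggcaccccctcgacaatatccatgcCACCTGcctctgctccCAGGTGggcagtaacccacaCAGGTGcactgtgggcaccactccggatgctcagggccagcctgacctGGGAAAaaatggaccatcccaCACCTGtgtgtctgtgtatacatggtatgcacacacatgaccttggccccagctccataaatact
The windows are chr15:100687921-100688170 for Cela1, chr4:141826006-141826255 for Cela2a and chr2:28563404-28563653 for Cel, all genes of the minus strand, printed in the direction of transcription. In Cela1 the E-box starts 109 bases and TTTCCC 99 bases before the start site. In Cela2a they start 218 and 84 bases before it, and in Cel TTTCCC starts at 86 and E-boxes at 170, 154, 134 and 65. In Cela2a and Cel the capitals CAGGTG and GGGAAA are the same motifs on the opposite strand. A match describes the letters of the window and was not tested for binding. Other acinar genes, drawn from a marker list, had CACCTG in 13 and TTTCCC in 4 of 22 windows.

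The arrays themselves were alike in depth. The 75th percentile of the processed signal, to which each array was scaled, ranged from 1735 to 2165 intensity units, and from 68.2% to 72.5% of spots were well above background. The labelled tissue carried its own markers: 12 of 12 absorptive enterocyte genes passed the filter on dim probes, and their median level on the 8 arrays ranged from 6.15 to 6.90 on the log2 scale relative to that percentile. Replicate 1 of 0 Gy saline and replicate 2 of 8 Gy saline stood apart from the other 6 arrays in the 10 enzymes, so every group comparison is given below with and without them. No spot of the 12 probes was saturated or carried an outlier mark. Signals of different probes are not comparable, so each gene is read across arrays only.

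Starch digestion was represented by Amy2a5, the pancreatic alpha-amylase that cuts starch into short sugars. Its brighter probe gave processed signals of 390143 and 28.3 in 0 Gy saline, replicate 1 first, and 218 and 157847 in 8 Gy saline. In 8 Gy FGF1 it gave 1.23 and 6.35, and in 8 Gy FGF1/CPP-C 3238 and 0.5. Only the 390143, 157847, 3238 and 218 were well above background, and they came from 4 arrays of 3 groups. The dimmer probe read 51285 and 6.48, then 24.8 and 14413, then 8.4 and 4.91, then 301 and 5.1 in the same order. It was well above background on 3 arrays, the same 3 that were highest with the brighter probe. Between replicates the brighter probe differed at least 12772-fold in 0 Gy saline, 677-fold in 8 Gy saline and at least 193-fold in FGF1/CPP-C. Here "at least" means that the lower array was not well above background, and that the higher of its own signal and the lowest detected signal of its array was used in its place.

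Fat digestion was represented by Cel, Clps and Pnliprp1. Cel, carboxyl ester lipase, is activated by bile salts and splits cholesterol esters and fats. It read 73191 and 297 in 0 Gy saline, 386 and 15613 in 8 Gy saline, 386 and 315 in FGF1 and 851 and 339 in FGF1/CPP-C. All 8 readings were well above background, and outside the 3 highest arrays they lay between 297 and 386. Pnliprp1, a relative of pancreatic lipase, read 30166 and 160 in 0 Gy saline, 184 and 7604 in 8 Gy saline, 154 and 151 in FGF1 and 320 and 145 in FGF1/CPP-C. It had the same order of the 3 highest arrays as Cel. The replicates of 0 Gy saline differed 228-fold in Cel and 175-fold in Pnliprp1, those of 8 Gy saline 37.8-fold and 38.5-fold, and those of FGF1/CPP-C 2.62-fold and 2.30-fold.

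Clps, colipase, the cofactor that holds pancreatic lipase on bile-coated fat droplets, was the exception. Its brighter probe read 120981 and 15115 in 0 Gy saline, 15532 and 44814 in 8 Gy saline, 18035 and 17743 in FGF1 and 17951 and 15506 in FGF1/CPP-C. Outside the 2 saline arrays that stood apart, all 6 readings lay between 15115 and 18035 and were far above background. The dimmer probe behaved alike, with 30594 and 11328 on those 2 arrays and between 3330 and 4033 on the other 6. Replicates differed 7.41-fold in 0 Gy saline and 2.70-fold in 8 Gy saline with the brighter probe, and 8.51-fold and 3.04-fold with the dimmer one. In FGF1/CPP-C they differed 1.21-fold and 1.20-fold.

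Protein digestion begins with the serine proteases, 4 of which were among the genes. Ctrb1, chymotrypsinogen B1, is the precursor of a chymotrypsin that cuts after large hydrophobic residues. It read 257417 and 323 in 0 Gy saline, 371 and 64661 in 8 Gy saline, 332 and 360 in FGF1 and 1773 and 325 in FGF1/CPP-C. The low readings lay between 323 and 371, and 3 arrays stood above them. Cela3b, an elastase-like protease, read 68945 and 62.9, then 101 and 14146, then 74.5 and 55.4, then 498 and 73.5 in the same order of arrays. Its replicates differed 1015-fold in 0 Gy saline, 131-fold in 8 Gy saline and 7.08-fold in FGF1/CPP-C, against 739-fold, 163-fold and 5.69-fold for Ctrb1.

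Cela2a, another elastase, was well above background on 4 arrays. It read 17322 and 45.2 in 0 Gy saline, 0.601 and 3710 in 8 Gy saline, 0.617 and -0.153 in FGF1 and 77.6 and 3.7 in FGF1/CPP-C. A negative signal belongs to a spot dimmer than the background subtracted from it. Cela1, the elastase that is also made outside the pancreas, read 40437 and 237 in 0 Gy saline, 260 and 11390 in 8 Gy saline, 735 and 272 in FGF1 and 475 and 205 in FGF1/CPP-C. Among the 10 genes it was the only one whose level in replicate 1 of FGF1 passed that in replicate 1 of FGF1/CPP-C on the scaled values, and its FGF1 replicates differed 2.57-fold. Replicates of Cela1 differed 158-fold in 0 Gy saline, 40.9-fold in 8 Gy saline and 2.41-fold in FGF1/CPP-C. For Cela2a the figures were 355-fold, at least 212-fold and at least 4.64-fold.

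The carboxypeptidases trim residues from the end of peptides, Cpa1 mainly hydrophobic and Cpb1 basic ones. Cpa1 read 131654 and 14.6 in 0 Gy saline, 42.7 and 31838 in 8 Gy saline, 11.2 and 49.6 in FGF1 and 804 and 9.63 in FGF1/CPP-C. The readings of 14.6, 11.2 and 9.63 were not well above background. Cpb1 read 92644 and 45.7, then 86.4 and 21945, then 77 and 40.9, then 539 and 70.3 in the same order. Of these, 45.7 and 40.9 were not well above background. Replicates of 0 Gy saline differed at least 7515-fold in Cpa1 and at least 1879-fold in Cpb1, those of 8 Gy saline 697-fold and 238-fold, and those of FGF1/CPP-C at least 48.0-fold and 8.00-fold.

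**Figure D1:**
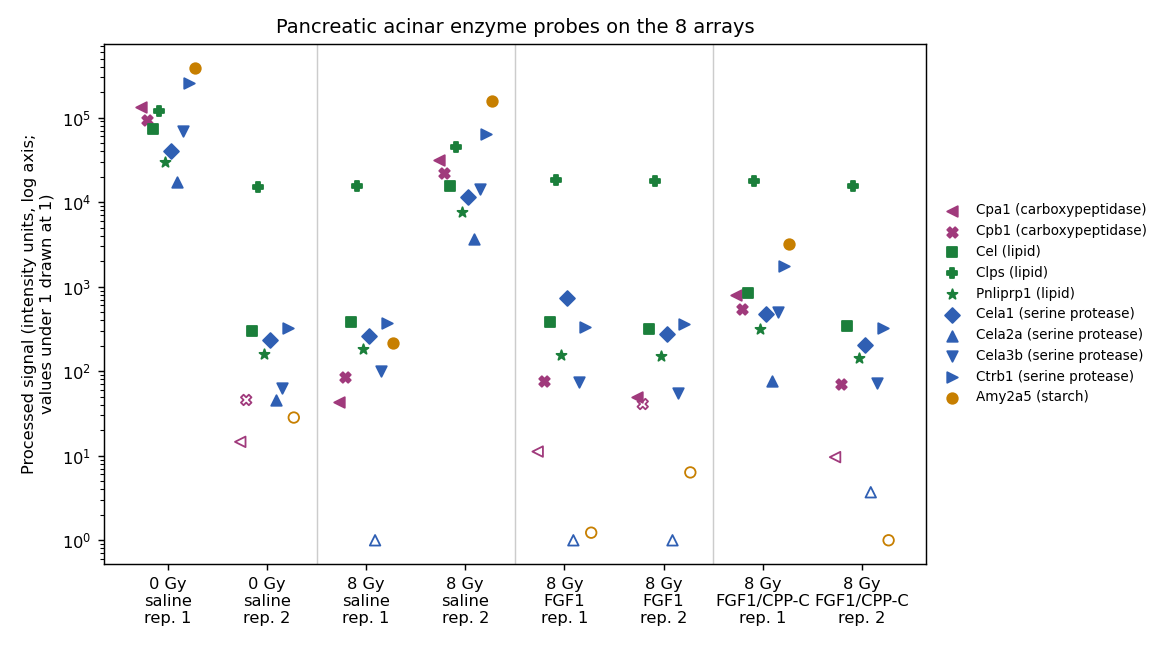
Processed signal (vertical log axis, intensity units) of the representative probe of each of the 10 genes on the 8 arrays, ordered by group and replicate (rep.). Filled symbols were well above background, open ones were not, and colours give the enzyme class. Replicate 1 of 0 Gy saline lies highest for every gene, replicate 2 of 8 Gy saline second, and most genes are also raised in replicate 1 of FGF1/CPP-C, while Clps is at 15115 or above on all arrays.

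Across the 12 probes the order of the arrays was nearly fixed. On the scaled values replicate 1 of 0 Gy saline was highest in 12 of 12 probes, replicate 2 of 8 Gy saline second in 12 of 12 and replicate 1 of FGF1/CPP-C came next in 11 of 12. The median scaled level of the 10 genes was 5.46 and -4.11 (log2) in 0 Gy saline, -3.34 and 3.1 in 8 Gy saline, -4.30 and -4.48 in FGF1 and -1.54 and -4.27 in FGF1/CPP-C. The 2 arrays of FGF1 thus differed by little, while the 2 arrays of each other group lay far apart, with SDs of 6.77, 4.55 and 1.93 for 0 Gy saline, 8 Gy saline and FGF1/CPP-C against 0.13 for FGF1. The 2 saline groups overlapped, since the arrays of 0 Gy saline enclosed both arrays of 8 Gy saline. All 10 genes were well above background on 3 arrays, and 7 of 10 on each of the 4 lowest. In bulk tissue, fewer cells of a type and less RNA per cell cannot be told apart.

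Such gaps between replicates were rare among all genes. Replicate 1 was at least 8-fold above replicate 2 in 0 Gy saline for 9 of the 10 enzymes and for 47 of 21707 genes measured there, or 0.217%. In 8 Gy saline replicate 2 was at least 8-fold above replicate 1 for 9 of the 10 enzymes and 95 of 21655 genes (0.439%). In both groups the enzyme short of 8-fold was Clps. In FGF1/CPP-C 2 of the 10, Amy2a5 and Cpa1, had replicate 1 at least 8-fold higher, as had 14 of 21782 genes (0.0643%), and Cpb1 lay just under the limit. In FGF1 none of the 10 passed this fold with replicate 1 higher, against 22 of 21780 genes (0.101%). With the replicates turned round none of the 10 passed in any group, against 0.00461%, 0.0231%, 0.0138% and 0.0413% of all genes in the order of groups just used for the levels. The genes had been chosen on these signals, so nothing is read from these shares. Of the 47 genes in 0 Gy saline, 43 were also among the 95 of 8 Gy saline, which is 91.5% of the first set and 45.3% of the second.

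The differences between replicates in the 2 saline groups also stood in a similar ratio for most of the probes. On the linear scale, after each array was scaled to its 75th percentile, the gap between the replicates of 8 Gy saline was expressed as a percentage of the gap between those of 0 Gy saline. Errors were propagated from the scanner software's error of each spot, with no replicate behind them. The percentage was 21.6 ± 3.07 for Ctrb1, 17.6 ± 2.50 for Cela3b, 18.6 ± 2.63 for Cela2a and 23.9 ± 3.44 for Cela1. For the lipases it was 18.0 ± 2.59 for Cel, 21.4 ± 3.07 for Pnliprp1 and 23.3 ± 4.80 and 24.4 ± 4.72 for the brighter and dimmer probes of Clps. Clps, which differed least as a fold, thus lay at the upper end of the other probes' range once the level of the other replicate was subtracted. Cpa1 was at 20.9 ± 2.96 and Cpb1 at 20.4 ± 2.89. The dimmer Amy2a5 probe gave 24.3 ± 3.44 and the brighter one 34.9 ± 4.95, so the probes of this gene differed by more than either error. Without the brighter Amy2a5 probe, 11 probes lay between 17.6 and 24.4, with a median of 21.4.

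For FGF1/CPP-C the gap between replicates 1 and 2 was far smaller. It came to between 0.419% (Cela2a) and 0.811% (brighter Amy2a5 probe) of the 0 Gy saline gap in 10 probes, with a median of 0.590%. The Clps probes gave 2.88 ± 2.20 and 2.38 ± 1.89, for which the errors were nearly as large as the values. As folds between single arrays, replicate 1 of 0 Gy saline was 2.86 to 5.63 times replicate 2 of 8 Gy saline over the 12 probes, with a median of 4.59. Replicate 2 of 8 Gy saline was in turn 2.21 to 43.2 times replicate 1 of FGF1/CPP-C, with a median of 28.7 and the smallest values in Clps. These folds compare single arrays, not conditions.

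**Figure D2:**
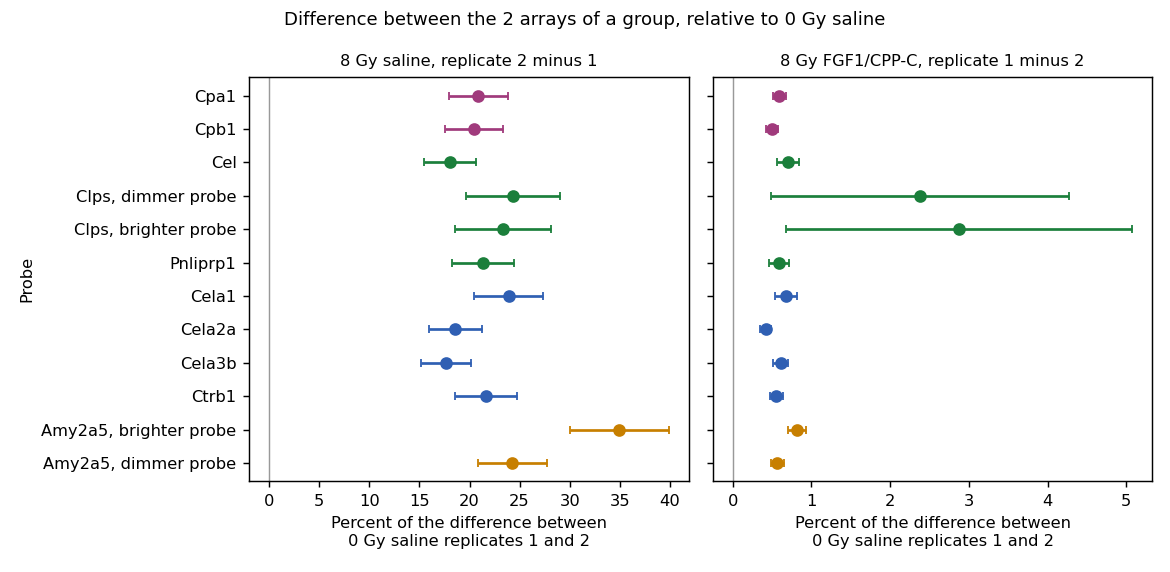
Gap between the 2 arrays of 8 Gy saline (left) and of 8 Gy FGF1/CPP-C (right), as a percentage of the gap between the 2 arrays of 0 Gy saline (horizontal axes, different scales), for each of the 12 probes. Bars are errors propagated from the scanner software's spot errors. Most probes lie near 21.5% on the left and near 0.6% on the right, apart from the brighter Amy2a5 probe on the left and the Clps probes on the right.

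Other acinar genes, from a marker list of 29 of which 26 were on the array and 21 passed the filter, followed the same order in part. Of the 26, 20 were highest in replicate 1 of 0 Gy saline. Of the 21, 13 had that array highest and replicate 2 of 8 Gy saline second, with outlier spots left out. Among the 21, replicate 1 was at least 8-fold higher in 0 Gy saline for 10, and replicate 2 in 8 Gy saline for 9. Try4, a trypsinogen, read 303756 and 10.9 in 0 Gy saline, 75.5 and 82286 in 8 Gy saline, 12.7 and 6.34 in FGF1 and 2030 and -3.57 in FGF1/CPP-C. Prss1 and Prss2, trypsinogens too, read 24569 and 104264 in replicate 1 of 0 Gy saline, 4166 and 23730 in replicate 2 of 8 Gy saline, and 106 and 565 in replicate 1 of FGF1/CPP-C. Pnlip, pancreatic lipase itself, read 66244 and 2.87, then 12.9 and 16542, then 4.53 and 11.5, then 339 and -0.308. These are the same 3 arrays in the same order as in the 10 enzymes.

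Ratios between the saline groups were taken for probes of the 26 genes with replicate 1 at least 8-fold higher in 0 Gy saline. Probes of genes that failed the filter were included, and probes short of 8-fold were left out. Ratios of the probes left out were not taken, so nothing is said of their likeness. Apart from those of Gp2, the ratios of the probes that met the 8-fold rule were similar. One of these readings, Try5 in replicate 2 of 8 Gy saline, carried an outlier mark. Leaving out Gp2, 17 probes of 14 genes lay between 13.9% and 23.4%, with a median of 19.0%, and in FGF1/CPP-C between 0.165% and 1.24%. Gp2 was set aside after its values were seen. It encodes a zymogen granule membrane protein that M cells of the gut also make, and it read 21071 and 1148 in 0 Gy saline, 680 and 24032 in 8 Gy saline, 12277 and 618 in FGF1 and 469 and 568 in FGF1/CPP-C. Its gap in 8 Gy saline was 102% and 108% of that in 0 Gy saline with its 2 probes, and replicate 1 of FGF1 was high too. Klk1, a kallikrein left out by the 8-fold rule, was likewise high in replicate 1 of FGF1, at 45849 against 13139 in replicate 2. It read 83793 in replicate 2 of 8 Gy saline and 58694 in replicate 1 of 0 Gy saline, the reverse of the enzymes' order. Pnliprp2, Rbpjl and Bhlha15, also left out, kept the enzymes' order of these arrays.

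The list also held factors of acinar transcription. Rbpjl read 506 and 67.9 in 0 Gy saline, 88.9 and 157 in 8 Gy saline, 90.7 and 67.1 in FGF1 and 113 and 66.3 in FGF1/CPP-C. Its 3 highest arrays were the 3 of the enzymes, in the same order. Ptf1a was well above background on 1 array only, replicate 1 of 0 Gy saline, at 35.7. Bhlha15, a factor for the secretory apparatus, ranged from 934 to 2452 and was highest on the 2 saline arrays that stood apart. On the scaled values replicate 2 of 0 Gy saline came next, at -0.36 (log2), and replicate 1 of FGF1 followed at -0.59. Replicates 1 and 2 of FGF1/CPP-C were lowest, at -1.04 and -1.05, so its replicate 1 was not raised as in the enzymes. Nr5a2 ranged from 1406 to 2387 and was not highest on those 2 saline arrays. Some genes of the list varied little. Spink1, a trypsin inhibitor, ranged from 253387 to 355711, and Erp27, a protein of the endoplasmic reticulum, from 2734 to 3967. Reg1 and Zg16 were saturated on all 8 arrays and are not compared.

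Markers of the endocrine pancreas, the duct and the stomach were read beside the enzymes. Of 12 islet genes 9 passed the filter, and their median level ranged from -2.63 to -1.46 (log2) over the arrays, with the lowest value in replicate 2 of 8 Gy saline. Ins1, insulin 1, read 302 in replicate 1 of 0 Gy saline and between 44.8 and 78.2 on the other 7 arrays. Ins2 read 554 there and between 294 and 393 elsewhere. Gcg, Iapp and Sst were not highest on that array, and enteroendocrine cells of the gut also make Gcg and Sst. Slc30a8 and G6pc2, markers of beta cells, were not well above background on any array. Of 8 duct markers 7 passed the filter, with a median level between 0.10 and 0.66, highest in replicate 2 of 8 Gy saline. Among them Spp1 read 594 in replicate 1 of 0 Gy saline, 807 in replicate 2 of 8 Gy saline, 318 in replicate 1 of FGF1 and between 90.2 and 152 on the other 5 arrays. Sox9 read 2221, 3445 and 2521 on the same 3 arrays and between 553 and 889 on the other 5.

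Stomach antrum markers, 11 of 12 of which passed the filter, moved with the enzymes on some arrays and not on others. Their median level was 1.50 and -3.98 (log2) in 0 Gy saline, -4.00 and 2.06 in 8 Gy saline, 1.00 and -4.17 in FGF1 and -4.59 and -5.64 in FGF1/CPP-C. The median was high on 3 arrays, 2 of which were the saline arrays with the highest enzymes, but there its order was turned. Gkn3 and Ctse also read high on other arrays. Gkn3 read between 294414 and 617992 in both saline groups and FGF1, and 607 and 567 in FGF1/CPP-C. Ctse read between 3497 and 14161 in the same groups, and 767 and 516 in FGF1/CPP-C. Gkn2, a gastrokine of the stomach surface, read 179843 and 44.4 in 0 Gy saline, 56.0 and 405732 in 8 Gy saline, 189594 and 30.6 in FGF1 and 37.9 and 19.5 in FGF1/CPP-C. Replicate 1 of FGF1 thus had high Gkn2 with an enzyme median of -4.30, and replicate 1 of FGF1/CPP-C had low Gkn2 with an enzyme median of -1.54. Of 6 stomach corpus markers 3 passed the filter. Gif had levels of -0.17, 0.52 and -1.16 in replicate 1 of 0 Gy saline, replicate 2 of 8 Gy saline and replicate 1 of FGF1 and between -5.92 and -4.74 on the other 5 arrays, while Pga5 and Ghrl spanned 0.63 and 1.02 over all 8. The part of these other tissues in the enzyme signals was not tested. Enterocyte markers were lowest on the same saline arrays, at median levels of 6.29 and 6.15 against 6.54 to 6.90 on the other 6.

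**Figure D3:**
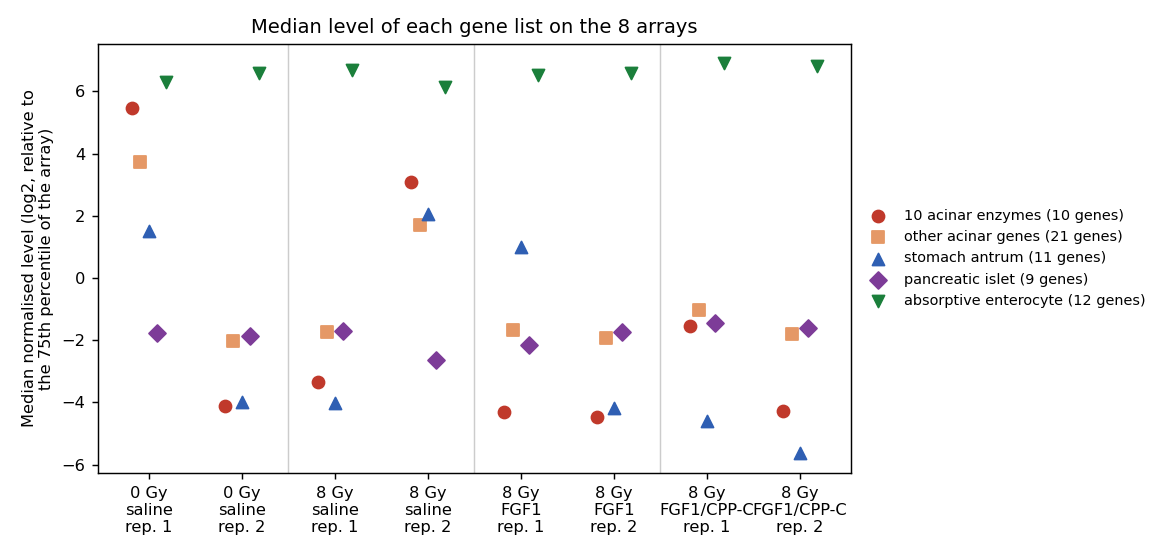
Median normalised level (vertical axis, log2 relative to the 75th percentile of the array) of the 10 enzymes, 21 other acinar genes, 11 stomach antrum, 9 pancreatic islet and 12 absorptive enterocyte genes on each of the 8 arrays. The 10 enzymes and the other acinar genes are high on the same 2 saline arrays, the antrum markers are also high in replicate 1 of FGF1, and islet and enterocyte markers vary by less than 1.2.

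The study's question was how FGF1 and FGF1/CPP-C change the transcriptome of the irradiated intestine, and the enzymes were placed in the 4 group comparisons that this implies. All 10 genes passed the filter, but Amy2a5 and Cpa1 did so through 8 Gy saline alone and Cela2a through 0 Gy saline alone. The genes were picked on these arrays, so the counts are descriptions. For 8 Gy against 0 Gy saline, limma called 0 of the 10 at an adjusted p under 0.05, against 89 of 21784 genes (0.409%), and 0 of the 10 had an unadjusted p under 0.05, against 2688 of all genes (12.3%). The median log2 fold change was -1.04, against -0.05 over all genes, and it was -9.54 on slide 1 and 6.68 on slide 2. Single genes ranged from -2.06 for Cela2a (SE 3.37) to 0.60 for Amy2a5 (SE 5.27). Without replicate 1 of 0 Gy saline the median turned to 3.21 and without replicate 1 of 8 Gy saline to 2.15. It was -5.94 without replicate 2 of 0 Gy saline, -4.31 without replicate 2 of 8 Gy saline and 0.07 without both saline arrays that stood apart.

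For FGF1 against 8 Gy saline limma called 0 of the 10, with 0 at an unadjusted p under 0.05, and 0 of 21799 genes (0%), of which 381 had an unadjusted p under 0.05. The median log2 fold change was -3.84, from -8.44 for Amy2a5 to -0.55 for Clps. It was -0.24 on slide 1 and -7.56 on slide 2. Neither FGF1 array was well above background for Amy2a5 or Cela2a. Amy2a5 passed the filter through 8 Gy saline alone, where its brighter probe read 218 and 157847. Cela2a was well above background on 1 of the 2 arrays of 8 Gy saline. No bound on the fold change is therefore given for either gene. The median was -0.25 without replicate 2 of 8 Gy saline and -7.61 without replicate 1.

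For FGF1/CPP-C against 8 Gy saline 0 of the 10 were called, against 2 of 21799 genes (0.00917%), and 0 had an unadjusted p under 0.05, against 2596 of all genes (11.9%). The median log2 fold change was -2.57, at 2.33 on slide 1 and -7.50 on slide 2. Leaving out replicate 2 of 8 Gy saline turned it to 0.75. Without replicate 1 of 8 Gy saline it was -6.17, without replicate 1 of FGF1/CPP-C -3.86, and without its replicate 2 -1.28. For FGF1/CPP-C against FGF1 0 of the 10 were called, against 2 of 21818 genes (0.00917%), and 0 had an unadjusted p under 0.05, against 1968 of all genes (9.02%). Here the median was 1.19, with 2.45 on slide 1 and -0.02 on slide 2. Without replicate 1 of FGF1/CPP-C it was -0.0034, and without replicate 2 it was 2.40.

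The spread between replicates set the precision of these values. Standard errors of the 10 genes ran from 0.94 for Clps to 5.27 for Amy2a5 (log2), against a median of 0.15 over all genes. The 95% interval for 8 Gy against 0 Gy saline ran from -3.20 to 1.38 for Clps and from -12.3 to 13.5 for Amy2a5. With 2 arrays against 2, an exact permutation test of 1 gene cannot go below p = 0.333. Comparisons that share 8 Gy saline share its replicate 2 as well.

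**Figure D4:**
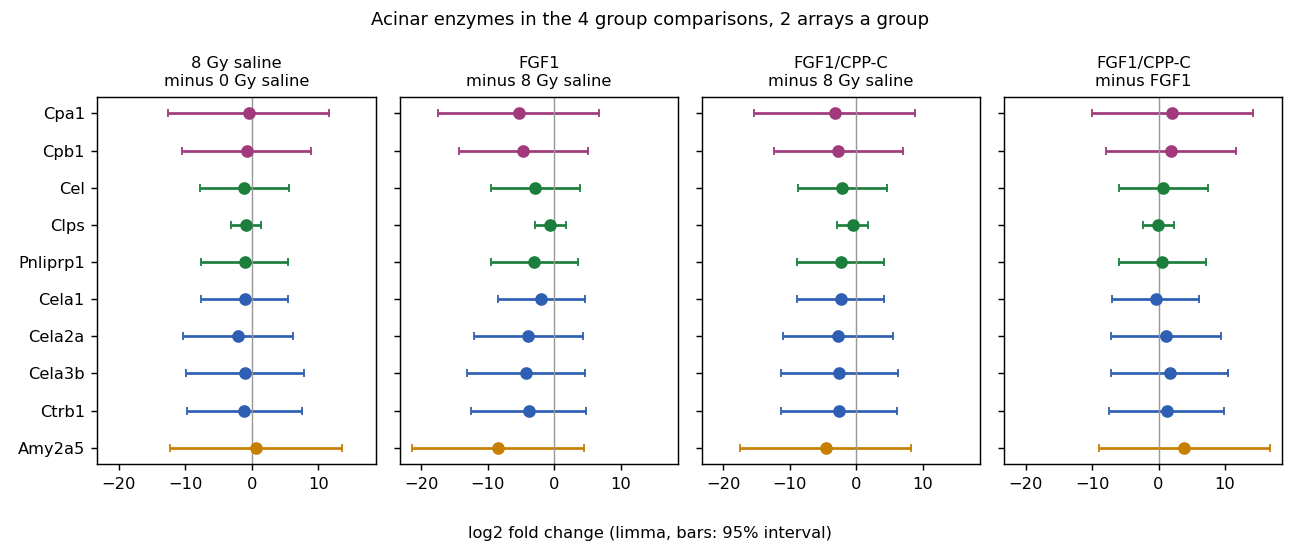
Log2 fold change from limma (horizontal axis) of each of the 10 enzymes in the 4 group comparisons, 2 arrays a group. Bars are 95% intervals. All intervals include 0, and the widest belong to Amy2a5 and the narrowest to Clps.

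Among 842 genes that varied by at least 2 on the log2 scale, those outside the marker lists were ranked by how closely they followed the median of the 10 enzymes over the 8 arrays. Pearson's r is a description here, and its 8 points include the 2 arrays that stood apart. The 10 enzymes themselves had r between 0.945 (Clps) and 0.999 (Cela3b). The closest other genes were Gm5771 (r = 0.997), an unnamed transcript (0.996), Amy1 (0.992), Gm10334 (0.988) and Pdia2 (0.973). Amy1 read close to the enzymes' pattern with 6.23 and -5.52 in 0 Gy saline and -4.52 and 4.57 in 8 Gy saline (log2 level), and its probe shares bases with that of Amy2a5. Pdia2, a disulfide isomerase known from the pancreas, had levels of 2.53 and -3.44 in 0 Gy saline, -3.27 and 0.30 in 8 Gy saline, -3.08 and -3.35 in FGF1 and -3.04 and -3.42 in FGF1/CPP-C. Itih4, Retnla, Vtn and Aspn followed with r from 0.860 to 0.910, as did another unnamed transcript with 0.901. Of 21 genes among the 842 with r of at least 0.95, 16 were among the 10 enzymes or in a marker list. The enzymes were picked for this pattern and make up the median itself. Their part of this count was therefore fixed in advance, and nothing is read from it.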

How the data were processed

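Total RNA was labelled with Cy3 and hybridised to 8 Agilent 1-colour arrays, per the labels. The deposited processed signal is an intensity on a linear scale, background-subtracted by Agilent Feature Extraction 9.5.3.1 per the file headers and the submitters' processing notes. The series matrix repeats these intensities, as deposited, for detected spots. Each array's 75th percentile of log2 signal was subtracted and a floor of -6.95 set. Control spots (1377) and outlier spots were left out. Probes had to be well above background on both arrays of 1 or more groups, and the brightest kept probe stood for a gene. limma 3.58.1 in R 4.3.3 fitted 4 group means to all 8 arrays, with Benjamini-Hochberg adjustment over all genes. The code was tested on simulated data.

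Replicate numbers mark the slide: replicate differences correlated across genes between groups from -0.52 to 0.54, and the labels name no animal, so whether they also pair animals is unknown. The 10 genes, the marker lists and the 8-fold limit were chosen with earlier results of these data known. All 10 genes and every probe are named, with the 10 most similar genes and some list genes of widest range or listed first. Other list genes were named after their values were seen. Probe coordinates are of mm9 and RefSeq windows of GRCm38.p6. Figures used matplotlib 3.10.9, and tables Python 3.11.15.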

Additional observations from a re-analysis of the deposited data

How the results depend on the processing

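None of the 10 enzymes was called by limma in any of the 4 comparisons under any alternative run: quantile normalisation, the series matrix values, normexp with an offset of 50, a mean over the probes of each gene, no filter on dim probes, only the groups compared, the replicate block, and each array left out. With the series matrix values only 8 of the 10 could be tested for FGF1 against 8 Gy saline and for FGF1/CPP-C against FGF1. With the replicate block the medians stayed at -1.04, -3.84, -2.57 and 1.19, in the order of the report, and 0 were called. Over the alternatives the smallest adjusted p of the 10 ranged from 0.524 to 0.971, 0.536 to 1.00, 0.289 to 0.971 and 0.586 to 1.00.

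Leaving out 1 array at a time, the median log2 fold change ranged from -5.94 to 3.21 for 8 Gy against 0 Gy saline and from -7.61 to -0.25 for FGF1 against 8 Gy saline. For FGF1/CPP-C it ranged from -6.17 to 0.75 against 8 Gy saline and from -0.0034 to 2.40 against FGF1. Where an array was left out, the lone array was assumed to vary like the other groups. Without both saline arrays that stood apart, an alternative added after the data were seen, the medians were 0.07, -0.25, 0.75 and 1.19. Normexp gave -1.10, -3.26, -2.31 and 0.91. The median level of the 10 genes spanned 9.93 (log2) over the arrays, and 9.09 to 9.84 under other scaling, background or probe rules. Signals below background have no order, and the cause of the array differences was not tested.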
